A study of Mus musculus with 9 samples.

Results

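The transcripts described here are those of 36 genes of glycolysis, lactate handling and glycogen turnover, taken by name from a table of 24062 gene symbols. Of the 36 genes, 35 were among the 12989 genes with enough counts to be tested, and Eno1 was not. They were measured by RNA sequencing in gastrocnemius muscle of mice aged 3 months, on a background labelled 129Sve/C57BL/6 mix and described as naturally aged. Each of 3 genotypes had 3 libraries, 9 in all. WT is wild type, and hetL1002P (BubR1+/L1002P) and hetX753 (BubR1+/X753) carry 1 altered copy of Bub1b, the gene of the spindle checkpoint protein BubR1, beside a wild-type copy. The labels name no treatment, and the altered copy is carried in the whole animal, so a difference in muscle cannot be assigned to muscle cells. The series concerns BubR1 alleles of mosaic variegated aneuploidy, and its design compares each carrier with WT and, by implication, the carriers with each other. No label states whether libraries sharing a genotype are from different animals, and the p-values below therefore reflect only how far these samples spread, part of which may be technical.

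Glycolysis splits glucose into pyruvate in the cytosol and yields ATP without oxygen. Fast muscle fibres depend on it during brief, intense work: glycogen phosphorylase releases glucose units from stored glycogen, and lactate dehydrogenase turns pyruvate to lactate, which leaves through monocarboxylate transporters. Several steps are served by a muscle enzyme and by a form typical of other tissues, such as Pfkm beside Pfkl and Pfkp, Pgam2 beside Pgam1, and Eno3 beside Eno1.

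Promoters are shown for 2 members that lay lower in every hetX753 library than in every WT library and that hold a core sequence known from binding sites of hypoxia-inducible factors. These are the 250 bases before a RefSeq start (GRCm38.p6), written 5′ to 3′ on the gene's strand, with each ACGTG on either strand (CACGT when read on the other) in capitals. Where both overlap they form the palindrome CACGTG.
Pgk1, chrX:106186850-106187099, plus strand: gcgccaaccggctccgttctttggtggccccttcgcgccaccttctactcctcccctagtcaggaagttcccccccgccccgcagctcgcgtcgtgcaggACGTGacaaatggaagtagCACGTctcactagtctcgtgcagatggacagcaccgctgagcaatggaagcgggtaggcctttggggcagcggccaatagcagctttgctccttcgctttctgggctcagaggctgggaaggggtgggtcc
Ldha, chr7:46845554-46845803, plus strand, the upstream of 2 starts: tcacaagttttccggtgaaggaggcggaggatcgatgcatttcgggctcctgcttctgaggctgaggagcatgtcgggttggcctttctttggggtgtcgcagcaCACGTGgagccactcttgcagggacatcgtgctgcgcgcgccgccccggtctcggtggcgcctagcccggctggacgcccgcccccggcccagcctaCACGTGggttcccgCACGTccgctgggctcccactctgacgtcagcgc
The Pgk1 window held 2 matches, 150 and 131 bases before the start. The Ldha window held 5, of which 4 form 2 CACGTG palindromes. The window before the other Ldha start, not printed, held 0. Of the 34 members in the promoter table, 13 (38.2%) had ACGTG in such a window before any of their starts, against 25% of 9777 tested genes and 18.5% of all 27025 genes in the table. The palindrome CACGTG was found for 6 members (17.6%), against 9.94% of tested genes. Members averaged 1.47 starts a gene and tested genes 1.28, so members had more windows to search. Among the 13 members below WT in all hetX753 libraries, 6 had ACGTG (46.2%) and 1 had CACGTG (7.69%). A match describes the letters in these windows and is not a binding site.

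Each library held between 19768149 and 33977252 counted reads. WT 3 and hetL1002P 3 stood apart from the rest, at -47.5 and -32.5 on the leading principal axis, which held 39.7% of the variance, where the other libraries lay between -9.52 and 28.8. All 14 markers of skeletal muscle were present, and their summed level was 260000 to 289000 CPM (reads of a gene scaled to a common library size) in WT, 230000 to 261000 in hetL1002P and 219000 to 237000 in hetX753. Bub1b itself stood at 0.568 to 0.774 CPM in WT and 0.0949 to 0.393 CPM in the 6 carrier libraries. In whole tissue, fewer cells of a type and less RNA per cell cannot be told apart.

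The 36 genes together took 8.65%, 8.54% and 9.44% of all counted reads in the WT libraries, 7.58%, 7.92% and 9.61% in hetL1002P and 8.08%, 8.07% and 7.98% in hetX753. These shares averaged 8.88 ± 0.491%, 8.37 ± 1.09% and 8.04 ± 0.0551% (SD, n = 3). The hetX753 libraries were close together and below all WT libraries, while those of hetL1002P spanned the whole range. Aldoa, the muscle aldolase that splits fructose bisphosphate, alone took 2.11 to 3.17% of counts.

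**Figure D1:**
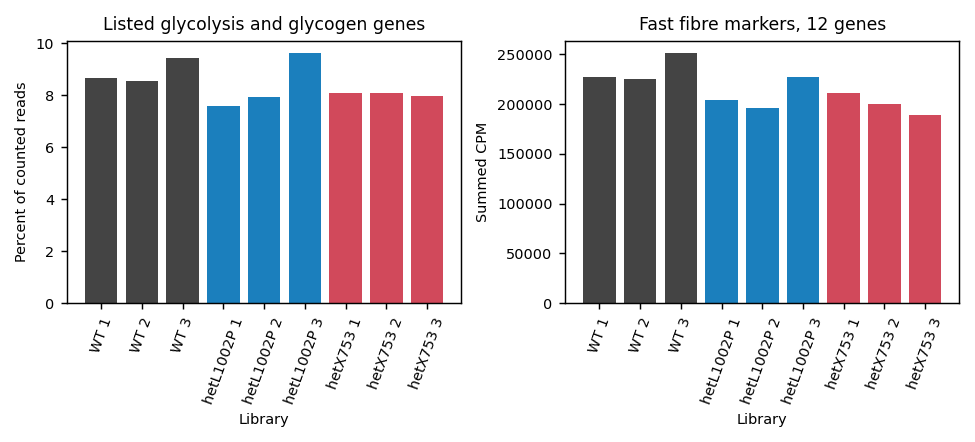
Share of counted reads taken by the 36 glycolysis and glycogen genes (left, percent) and summed CPM of 12 fast fibre markers (right), 1 bar per library, coloured by genotype. WT 3 and hetL1002P 3 have the highest bars for the glycolysis and glycogen genes, at 9.44% and 9.61%, and the hetX753 bars lie near 8%.

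Per kilobase of exon, levels of the members ran from very abundant to near absence. Aldoa averaged 13900 CPM per kilobase over the 9 libraries, Gapdh 7000, Eno3 5410, the muscle glycogen phosphorylase Pygm 3750, Pgam2 3160, Ldha 2340, Pkm 2160 and Tpi1 1690. These 8 had the highest levels, and Pfkm followed at 1630. Pgk1 averaged 789 CPM per kilobase, Gpi1 464 to 533 by genotype and Hk1 1.78 to 2. At the low end were Pfkl at 3.84, Eno1b at 2.73, Pfkp at 1.24, Aldoc at 0.145 and Eno1 at 0.00736.

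**Figure D2:**
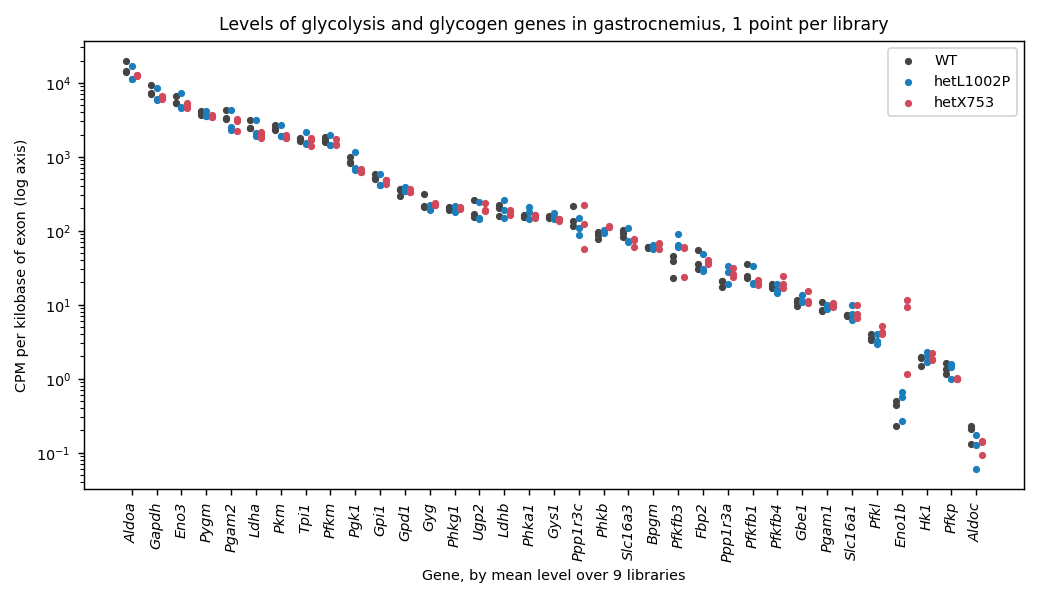
Level of each of the 35 tested genes in CPM per kilobase of exon (log axis), 1 point per library coloured by genotype, with genes ordered by their mean. Eno1 is not drawn. Points of 1 gene mostly lie on top of each other, while Eno1b has 2 hetX753 points far above the rest.

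In hetX753 muscle, 1 of the 35 tested members rose and 0 fell against WT (edgeR quasi-likelihood test, Benjamini-Hochberg adjusted p under 0.05 over all genes), where 0.508% of all tested genes passed, 0.331% higher and 0.177% lower. The member that rose was Eno1b, a retrotransposed copy of the enolase gene Eno1. The other 34 members had adjusted p from 0.129 upward. DESeq2, which called 4.93% of all genes, called 2 members, Eno1b and Phkb, both higher, and limma-voom called 0. At an unadjusted p under 0.05 there were 8 members, against 20.9% of all genes: Eno1b, Phkb, Pkm, Ppp1r3a, Pgk1, Ldha, Pfkp and Slc16a3. The members' log2 fold changes had a median of -0.12, with 20 of 35 below 0, while the median of all genes was 0.00 and 49.6% of genes were below 0.
With library totals as the only scaling, the median of all genes moved to 0.12 and that of the members to 0.01, still below the typical gene. When a trend on GC content and transcript length was removed, the members' median was -0.02 and that of all genes -0.02, so the members no longer lay below the typical gene.

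All 3 hetX753 libraries lay below all 3 WT libraries for 13 members (37.1%, against 15.8% of all genes): Gpi1, Pfkp, Aldoa, Gapdh, Pgk1, Pgam2, Eno3, Pkm, Ldha, Slc16a3, Pygm, Gys1 and Pfkfb1. They lay above for 3 members (8.57%, against 16.7% of all genes), Eno1b, Phkb and Ppp1r3a. With library totals as the only scaling the counts were 8 lower (22.9%, against 9.93%) and 6 higher (17.1%, against 23.3%). After a trend on GC content and transcript length was removed they were 8 lower (22.9%, against 14.7%) and 4 higher (11.4%, against 12.8%). Without WT 3 and hetL1002P 3 they were 13 lower (37.1%, against 20.4%) and 6 higher (17.1%, against 20.6%). With library totals alone Pfkp, Pgam2, Eno3, Pygm and Gys1 no longer lay below WT in every hetX753 library. With the trend removed Aldoa, Gapdh, Pgam2, Eno3 and Pygm no longer did, and Ppp1r3a no longer lay above. Of the 12 fast fibre markers, 9 had log2 fold changes below 0 in this comparison and the median was -0.36. For 7 of the 12, every hetX753 library lay below every WT library, more often than for all genes (15.8%). These were Tnnt3, Tnni2, Tnnc2, Mylpf, Pvalb, Casq1 and Myl1. The fast myosin heavy chains Myh4, Myh1 and Myh2 overlapped with WT, as did Atp2a1 and Actn3. Myh4 stood at 50795 to 59571 CPM in hetX753 and 44211 to 61648 in WT. These marker counts used the main scaling, without the trend removed. At an unadjusted p under 0.05 in edgeR there were 7 of the 12, against 20.9% of all genes. Of these markers 0 passed in edgeR, 1 in DESeq2 (Tnnc2) and 0 in limma-voom. Their summed level was 225000 to 251000 CPM in WT, 196000 to 227000 in hetL1002P and 189000 to 211000 in hetX753. The 10 slow fibre markers summed to 904 to 3290 CPM in WT and 1690 to 3080 in hetX753. The part of fibre type in the members' levels was not tested.

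**Figure D3:**
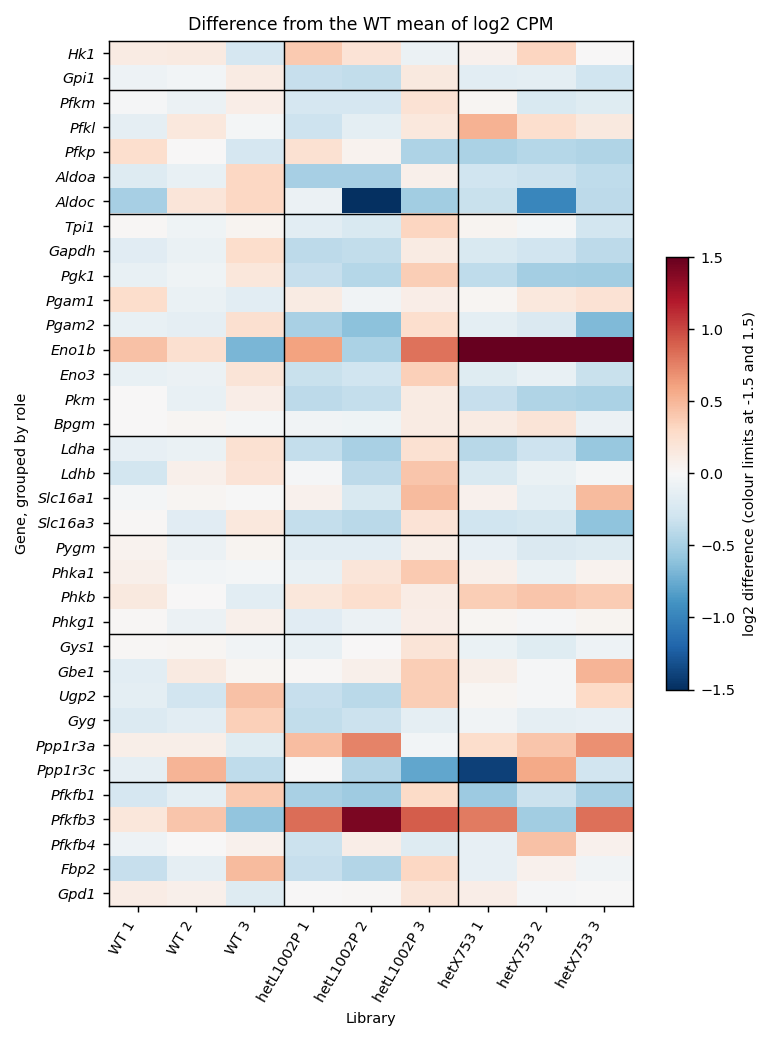
Difference of log2 CPM from the WT mean for each tested member (rows, grouped by role) in each of the 9 libraries (columns), red higher and blue lower, with colours ending at 1.5. Most rows of lower glycolysis are mainly blue across the hetX753 columns and the first 2 hetL1002P columns and red in WT 3 and hetL1002P 3.

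Enolase turns phosphoglycerate to phosphoenolpyruvate, and Eno3 is its muscle form. Eno3 (ENSMUSG00000060600, chromosome 11 from 70653125 to 70662513) stood at 8320, 8450 and 10300 CPM for WT, 7120, 7290 and 11500 for hetL1002P and 7890, 8310 and 7120 for hetX753. The hetX753 libraries were below WT by a small margin, with a log2 fold change of -0.21 (SE 0.19, adjusted p = 0.516) that turned to 0.01 when the trend on length and GC was removed. Eno1 (ENSMUSG00000063524, chromosome 4 from 150236708 to 150248879), the enolase of most tissues, had 1, 2 and 0 counts for WT, 0 in each hetL1002P library, and 1, 0 and 0 for hetX753.

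Eno1b (ENSMUSG00000059040, chromosome 18 from 48045335 to 48048379) had 32, 16 and 9 counts for WT, 27, 14 and 26 for hetL1002P and 603, 55 and 376 for hetX753. This is 0.947, 0.826 and 0.435 CPM for WT, 1.06, 0.503 and 1.23 for hetL1002P and 21.7, 2.17 and 17.4 for hetX753. Every hetX753 library was above all 6 others, but hetX753 2 lay nearer to them than to the other carriers of that allele. Eno1b rose 18.1-fold in hetX753 against WT (log2 fold change 4.18, SE 0.74, adjusted p = 0.0395), and in the joint test of the 3 genotypes, which 0.216% of all genes and 1 member passed, its adjusted p was 0.043. In hetL1002P its log2 fold change against WT was 0.28 (SE 0.83, adjusted p = 0.905), and between the carriers 3.90 (SE 0.72, adjusted p = 0.0761).

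Whether Eno1b passed depended on the fit. It passed with DESeq2 (adjusted p = 7.95e-05) and without hetX753 2 (edgeR adjusted p = 0.00152). In edgeR it also passed with DESeq2 size factors (0.0381) and a filter of at least 1 CPM in 3 libraries (0.0441). The same held without robust estimation (0.04) and with a replicate block in all 9 libraries (0.0311). It missed with limma-voom (0.161), library totals alone (0.063), no low-count filter (0.108), the length and GC trend removed (0.0746), WT and hetX753 alone (0.086) and without both WT 3 and hetL1002P 3 (0.168). Leaving out any of the other 8 libraries also ended the call, with adjusted p from 0.0532 without hetL1002P 3 to 0.193 without WT 3. Its log2 fold change lay between 3.65 and 4.68 in all of these fits. Of the stretches of 50 bases in its annotated protein-coding transcripts, 76.4% also occur in transcripts of Eno1, and 48.4% of those of Eno1 occur in Eno1b, whereas 0% are shared with Eno3. Counts of Eno1 and Eno1b can therefore be split or dropped by the authors' counting, and they are uncertain as values of either gene. With the counts of both summed, the log2 fold change was 4.10 (adjusted p = 0.0425).

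**Figure D4:**
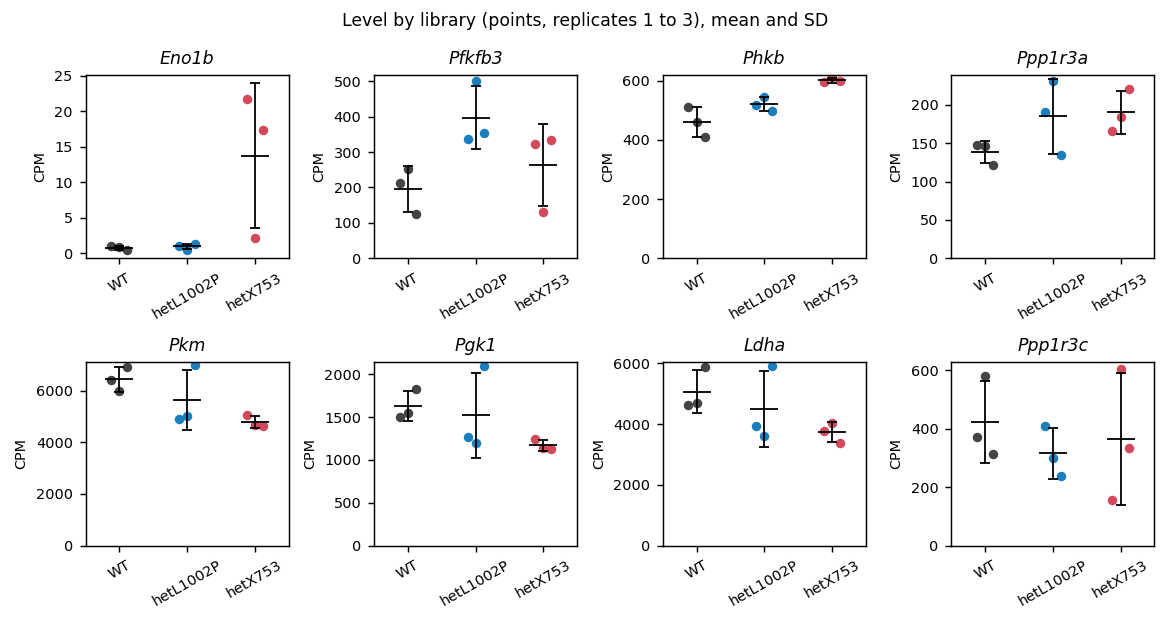
CPM of Eno1b, Pfkfb3, Phkb, Ppp1r3a, Pkm, Pgk1, Ldha and Ppp1r3c, 1 panel per gene with its own linear axis, 1 point per library, and mean with SD as bars. Eno1b is low in 6 libraries and in hetX753 2 and high in hetX753 1 and 3, at 21.7 and 17.4 CPM.

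The first steps of glycolysis phosphorylate and rearrange glucose. Hk1, a hexokinase, stood at 7.16 to 9.40 CPM in WT, 8.07 to 11.2 in hetL1002P, and 8.63 to 10.7 in hetX753, with overlapping groups. Hk2, a hexokinase among the further pathway genes, stood at 267, 299 and 231 CPM for WT. It stood at 305, 335 and 331 CPM for hetL1002P and 346, 314 and 430 for hetX753. All carrier libraries were above WT, as for 16.7% of all genes in hetX753 and 5.67% in hetL1002P. Its log2 fold change was 0.45 in hetX753 (SE 0.14, edgeR adjusted p = 0.146). In hetL1002P it was 0.28 (SE 0.14, edgeR adjusted p = 0.579), from the same WT libraries. Gpi1, glucose-6-phosphate isomerase, stood at 1450, 1490 and 1670 CPM in WT and 1380, 1390 and 1250 in hetX753, a mean of 1540 ± 117 against 1340 ± 81.5 CPM (SD, n = 3), and did not pass. Its hetL1002P libraries, at 1210, 1190 and 1700 CPM, spread beyond both other genotypes.

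Phosphofructokinase commits sugar to glycolysis. Pfkm, its muscle subunit, stood at 5070, 4810 and 5480 CPM for WT, 4300, 4300 and 5920 for hetL1002P and 5210, 4380 and 4490 for hetX753, so the groups overlapped. Pfkl, the liver-type subunit, stood at 12.3, 15.1 and 13.2 CPM for WT, 10.9, 12.2 and 15 for hetL1002P and 19.3, 16 and 14.9 for hetX753. Only hetX753 1 and 2 were above every WT library, and the log2 fold change of Pfkl was 0.31 (SE 0.16, adjusted p = 0.279). Pfkp, the platelet-type subunit, stood at 6.98, 5.88 and 4.93 CPM for WT, 6.88, 6.11 and 4.27 for hetL1002P and 4.24, 4.38 and 4.29 for hetX753. Its hetX753 libraries were all below WT, by a log2 fold change of -0.47 (SE 0.21, adjusted p = 0.23).

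Aldoa (ENSMUSG00000030695, chromosome 7 from 126795234 to 126800994) stood at 25200, 26600 and 35800 CPM for WT, 20400, 20500 and 30500 for hetL1002P and 23500, 23100 and 22200 for hetX753. WT 3 and hetL1002P 3 were the highest libraries, and the other hetL1002P libraries were the lowest of all. In hetX753 its log2 fold change was -0.35 (SE 0.19, adjusted p = 0.299), and in hetL1002P -0.30 (SE 0.19, adjusted p = 0.584). Aldoc, the brain-type aldolase, was near absence at 0.385, 0.619 and 0.677 CPM for WT, 0.511, 0.18 and 0.38 for hetL1002P and 0.431, 0.276 and 0.415 for hetX753, with overlapping groups.

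Triose phosphates pass through Tpi1, the isomerase, and Gapdh, the dehydrogenase that makes NADH. Tpi1 stood at 3070, 2910 and 3120 CPM for WT, 2720, 2590 and 3800 for hetL1002P and 3130, 2980 and 2500 for hetX753. Its groups overlapped, and hetL1002P 3 was the highest. Gapdh stood at 10400, 10900 and 14000 CPM for WT, 8860, 9030 and 12700 for hetL1002P and 9940, 9530 and 8910 for hetX753. Again WT 3 and hetL1002P 3 were highest, and the log2 fold change of Gapdh in hetX753 was -0.31 (SE 0.17, adjusted p = 0.305). Bpgm, which makes the bisphosphoglycerate of red cells, stayed between 125 and 152 CPM in all libraries.

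Pgk1 and Pkm are the ATP-making steps of glycolysis, phosphoglycerate kinase and pyruvate kinase. Pgk1 (ENSMUSG00000062070, chromosome X from 106187100 to 106203699) stood at 1500, 1550 and 1830 CPM for WT, 1270, 1200 and 2090 for hetL1002P and 1240, 1140 and 1130 for hetX753. Pkm (ENSMUSG00000032294, chromosome 9 from 59656576 to 59679372) stood at 6430, 5970 and 6910 CPM for WT, 4910, 5030 and 6990 for hetL1002P and 5060, 4690 and 4640 for hetX753. For both genes the hetX753 libraries lay below WT without overlap, and hetL1002P 3 alone of its genotype was at or above the WT range. The log2 fold change in hetX753 was -0.47 for Pgk1 (SE 0.20, adjusted p = 0.213), 1.39-fold lower. For Pkm it was -0.42 (SE 0.15, adjusted p = 0.169), 1.34-fold lower. Without hetL1002P 3 both passed in edgeR, Pgk1 with adjusted p = 0.0371 and Pkm with 0.0388, and without both WT 3 and hetL1002P 3 with 0.0398 and 0.0376. In these fits 5.07% and 2.58% of all genes passed, so 2 of 35 members is near the background. Of the 50-base stretches of Pgk1 transcripts, 68% occur in other annotated genes, mostly the processed copy Pgk1-rs7, and for Gapdh 58.4% do, mostly in Gm7336, so these counts are less certain.

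Phosphoglycerate mutase lies between them. Its muscle form Pgam2 stood at 2770, 2730 and 3550 CPM for WT, 2140, 1960 and 3560 for hetL1002P and 2710, 2570 and 1890 for hetX753. The margin between WT and hetX753 was narrow, with 2730 against 2710 CPM at the edges, and the log2 fold change was -0.34 (SE 0.23, adjusted p = 0.406). Pgam1, the form of other tissues, stood at 19.4, 15.1 and 14.5 CPM for WT, 17.7, 15.6 and 17.3 for hetL1002P and 16.5, 18 and 18.8 for hetX753. Its groups overlapped, and 41.5% of its 50-base stretches occur in other genes.

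Ldha, the lactate dehydrogenase subunit of fast muscle (ENSMUSG00000063229, chromosome 7 from 46842274 to 46855627), stood at 4640, 4690 and 5890 CPM for WT, 3940, 3610 and 5920 for hetL1002P and 3770, 4050 and 3390 for hetX753. All hetX753 libraries were below WT, by a log2 fold change of -0.44 (SE 0.19, adjusted p = 0.221), 1.36-fold. Slc16a3, the exporter of lactate from glycolytic cells, stood at 419, 369 and 462 CPM for WT, 324, 314 and 479 for hetL1002P and 337, 346 and 272 for hetX753. Its libraries had the same order of genotypes as those of Ldha, with a log2 fold change of -0.39 (SE 0.18, adjusted p = 0.239). Ldhb, the subunit of oxidative tissue, stood at 208, 264 and 289 CPM for WT, 248, 191 and 336 for hetL1002P and 215, 235 and 246 for hetX753. Slc16a1, the transporter of oxidative tissue, stood at 31.4, 32.6 and 31.9 CPM for WT, 33.5, 27.2 and 44.5 for hetL1002P and 33.3, 28.9 and 44.4 for hetX753. Both overlapped between genotypes, and the range of Slc16a1 was narrowest in WT, at 31.9 ± 0.607 CPM against 35.5 ± 8.03 in hetX753 (SD, n = 3).

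Glycogen breakdown starts with Pygm, the phosphorylase, which is switched on by phosphorylase kinase. Pygm (ENSMUSG00000032648, chromosome 19 from 6384408 to 6398464) stood at 11800, 10700 and 11700 CPM for WT, 10200, 10200 and 12100 for hetL1002P and 10500, 9810 and 9980 for hetX753. Its log2 fold change in hetX753 was -0.18 (SE 0.12, adjusted p = 0.393). The kinase has the regulatory subunits Phka1 and Phkb and, in muscle, the catalytic subunit Phkg1. Phkb (ENSMUSG00000036879, chromosome 8 from 85840853 to 86064251) stood at 510, 462 and 411 CPM for WT, 518, 545 and 498 for hetL1002P and 595, 611 and 600 for hetX753. The hetX753 libraries were tightly grouped above all others, with a mean of 602 ± 8.18 CPM against 461 ± 49.3 in WT (SD, n = 3). This was 1.31-fold (log2 0.39, SE 0.11), with adjusted p = 0.129 in edgeR and 0.0112 in DESeq2. With the trend on length and GC removed, Phkb in hetX753 stayed above all WT libraries but overlapped with hetL1002P. Phka1 stood at 903 to 1020 CPM in hetX753 and 945 to 1020 in WT, and Phkg1 at 472 to 491 and 448 to 502, so neither other subunit was set apart.

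Glycogen is built by Gys1, the muscle synthase, from UDP-glucose made by Ugp2, on the primer glycogenin (Gyg), with branches made by Gbe1. Gys1 stood at 572, 579 and 547 CPM in WT and 526, 497 and 538 in hetX753, without overlap, and did not pass. Ugp2 ran from 447 to 737 CPM in WT, 413 to 704 in hetL1002P and 537 to 672 in hetX753. Gyg ran from 407 to 599, 362 to 427 and 426 to 452 CPM, and Gbe1 from 40.7 to 49.7, 45.9 to 58.6 and 44.8 to 64.8 CPM in the same order. None of these 3 passed in any comparison, and the WT range of Ugp2 and Gyg was set by WT 3.

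Ppp1r3a and Ppp1r3c target protein phosphatase 1 to glycogen, where it turns synthase on and phosphorylase off. Ppp1r3a, the muscle subunit (ENSMUSG00000042717, chromosome 6 from 14713822 to 14755274), stood at 147, 146 and 122 CPM for WT, 190, 231 and 134 for hetL1002P and 166, 184 and 221 for hetX753. All hetX753 libraries were above WT and 2 of 3 hetL1002P libraries were. With the trend on length and GC removed, Ppp1r3a no longer separated hetX753 from WT. Its log2 fold change was 0.46 (SE 0.19, adjusted p = 0.211) in hetX753 and 0.42 (SE 0.19, adjusted p = 0.579) in hetL1002P, and these comparisons share the WT libraries. Ppp1r3c was among the most variable members within genotypes, at 373, 580 and 314 CPM for WT, 409, 301 and 237 for hetL1002P and 155, 605 and 334 for hetX753. Its lowest and highest libraries, 3.89-fold apart, were both hetX753.

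Enzymes of the Pfkfb family set the level of fructose-2,6-bisphosphate, the activator of phosphofructokinase. Pfkfb3, a form with strong kinase activity (ENSMUSG00000026773, chromosome 2 from 11471430 to 11554071), stood at 213, 252 and 125 CPM for WT, 338, 500 and 353 for hetL1002P and 324, 131 and 335 for hetX753. All hetL1002P libraries were above WT and above hetX753, in which hetX753 2 was at the WT level. With the trend on length and GC removed, the hetL1002P libraries stayed above WT but overlapped with hetX753. Pfkfb1, the form of liver and muscle, stood at 46.9, 50.3 and 73.2 CPM for WT, 39.7, 38.5 and 67.9 for hetL1002P and 38.2, 44.6 and 39.8 for hetX753. Its hetX753 libraries were below WT, by a log2 fold change of -0.47 (SE 0.23, adjusted p = 0.264). Pfkfb4 ran from 50.2 to 85 CPM over all libraries. Fbp2, the muscle fructose bisphosphatase, ran from 38.9 to 73.3 CPM, and Gpd1, the cytosolic glycerol phosphate dehydrogenase, from 849 to 1100 CPM, each with overlapping groups.

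**Figure D5:**
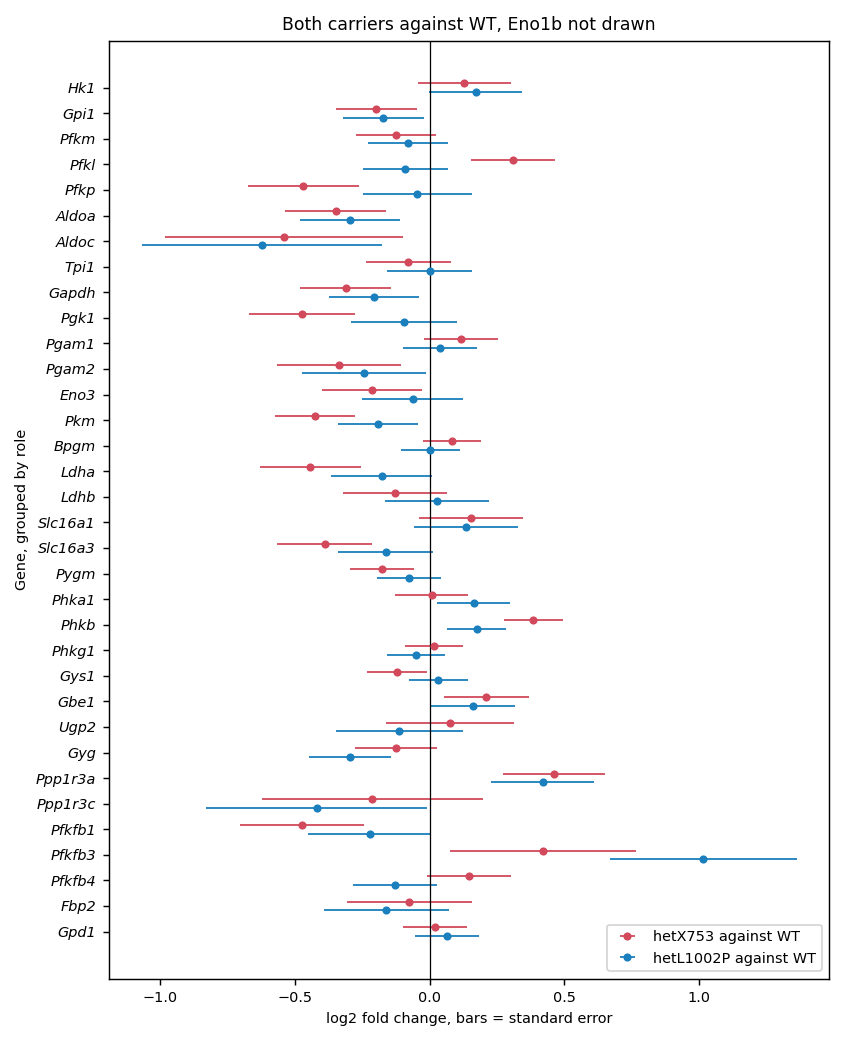
Log2 fold change against WT with its standard error for the tested members grouped by role, 1 point for each carrier genotype, with Eno1b outside the drawn range left out. In hetX753 most points of lower glycolysis and lactate handling lie left of 0, and the point farthest to the right is Pfkfb3 in hetL1002P at 1.01.

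In hetL1002P muscle, 0 of the 35 members passed against WT in edgeR, DESeq2 or limma-voom, where 0% of all genes passed in edgeR and 7.96% had an unadjusted p under 0.05. At that bound there was 1 member, Pfkfb3. Its level was 397 ± 89.4 CPM in hetL1002P and 197 ± 65.3 in WT (SD, n = 3), 2.02-fold higher (log2 1.01, SE 0.35, edgeR adjusted p = 0.579). Deviations of same-numbered WT and hetL1002P libraries correlated, and with a block on the replicate number, fitted on these genotypes alone, Pfkfb3 passed, with a log2 fold change of 1.04 and adjusted p = 0.027, where 5.01% of all genes passed and 1 of 35 members did. It passed with this block without pair 1 (adjusted p = 0.024) and without pair 3 (0.0238), but not without pair 2 (0.341) or once the trend on length and GC was removed as well (0.13). In hetX753 its log2 fold change against the same WT libraries was 0.42 (SE 0.34, adjusted p = 0.487).

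The members' median log2 fold change in hetL1002P was -0.08, with 21 of 35 below 0, against 48.1% of all genes. All hetL1002P libraries lay above WT for 1 member, Pfkfb3 (2.86%, against 5.67% of all genes), and below it for 0 (against 3.77%). Compared within the 3 same-numbered pairs, hetL1002P was lower in every pair for 6 members (17.1%, against 22.8% of all genes), Gapdh, Aldoa, Ugp2, Gyg, Fbp2 and Pfkfb1. It was higher in every pair for 4 (11.4%, against 23.5%), Hk1, Phkb, Ppp1r3a and Pfkfb3. Aldoa had adjusted p = 0.0525 in edgeR with the block on these genotypes. Without WT 3 and hetL1002P 3, 21 members lay below WT in both remaining libraries (60%, against 27.1% of all genes) and 4 above (11.4%, against 27.7%), and the median was -0.16. These 21 included Aldoa, Gapdh, Pgk1, Eno3, Pkm, Ldha and Pygm. Without hetL1002P 3 alone the median was -0.21, so the value moved with that library.

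The members' highest levels gathered in 1 library. Of the 35 members, 16 (45.7%) had their highest level in hetL1002P 3, where 11.7% of all genes did, and 7 (20%) in WT 3, against 22.9%. Fast fibre markers summed to 227000 CPM in hetL1002P 3 and 251000 in WT 3, in each case the highest of the genotype. The markers did not move together in WT 3. Its fast myosin heavy chains Myh4, Myh1 and Myh2 were the lowest of all libraries, at 44211, 2009 and 1140 CPM. Tnnt3, Tnni2, Tnnc2, Atp2a1, Mylpf, Pvalb and Myl1 were the highest there. The split went beyond the fast fibre list. Ttn and Neb were also lowest in WT 3, at 2594 and 1523 CPM, against 5144 to 6750 and 2662 to 4657 elsewhere. WT 3 held the lowest level of 7 members, Phkb and Ppp1r3a among them, and of 24.3% of all genes. What set WT 3 apart was not tested. The members' levels were otherwise steady: the highest library was at least 2 times the lowest for 4 of 35 members (11.4%), against 36.9% of all genes. Those 4 were Eno1b, at 49.8-fold, Pfkfb3 at 4.01-fold, Ppp1r3c at 3.89-fold and Aldoc at 3.77-fold.

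Between the alleles, 0 of 35 members passed in hetX753 against hetL1002P (edgeR), where 0.115% of all genes passed (0.0616% higher and 0.0539% lower), and 2 had an unadjusted p under 0.05, against 8.24%. DESeq2 called 1, Eno1b (adjusted p = 0.000598), where 1.06% of all genes passed, and limma-voom 0. The 2 members were Eno1b and Pfkl, the latter at a log2 fold change of 0.40 (SE 0.16, adjusted p = 0.525). Eno1b and Phkb were higher in every hetX753 than in every hetL1002P library (5.71%, against 7.44% of all genes), and Pfkfb3 was lower (2.86%, against 6.98%). With the trend on length and GC removed, Phkb and Pfkfb3 overlapped, while Eno1b and Gyg were higher and Pfkp lower. Phkb had a log2 fold change of 0.21 (SE 0.11, adjusted p = 0.69) and Pfkfb3 of -0.59 (SE 0.34, adjusted p = 0.729). The members' median was -0.04 with all libraries and 0.11 without hetL1002P 3.

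The share of each enzyme step carried by 1 form, computed from counts per kilobase, was compared over 6 steps with exact permutation tests of the 9 libraries, which allow no p below 0.00357. Muscle forms dominated in every library. Pfkl and Pfkp together made 0.253 to 0.362% of phosphofructokinase, Aldoc 0.000538 to 0.00154% of aldolase and Pgam1 0.192 to 0.47% of the mutase. Ldhb made 6.77 ± 0.735% of lactate dehydrogenase in WT, 7.71 ± 0.623% in hetL1002P and 8.32 ± 1.03% in hetX753 (SD, n = 3; exact permutation p = 0.157, adjusted p = 0.343). Slc16a1 made 7.21 ± 0.848%, 8.66 ± 0.716% and 10.3 ± 3.37% of the 2 transporters (exact permutation p = 0.229, adjusted p = 0.343). The Ldhb share was 7.67 to 9.51% in hetX753, above every WT library at 6.11 to 7.56%, while hetL1002P overlapped both. For the Slc16a1 share all groups overlapped. Eno1 and Eno1b together made 0.00353 to 0.0124% of enolase in WT and hetL1002P and 0.229, 0.0218 and 0.203% in hetX753 (exact permutation p = 0.0214, adjusted p = 0.129). The counts of Eno1 and Eno1b may leave out reads that fit both, which Eno3 does not share, so this enolase share is uncertain. Of the 6 shares, 0 passed after adjustment.

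Further genes of glucose and glycogen metabolism numbered 61 in the table, with 53 tested, and 0 passed in any comparison in edgeR or limma-voom. DESeq2 called 3 in hetX753 against WT, Pgm2l1, Pdha1 and Pfkfb2, where it called 4.93% of all genes. Against WT, 12 had an unadjusted p under 0.05 in hetX753 (20.9% of all genes) and 3 in hetL1002P (7.96% of all genes), with medians of -0.06 and 0.02. In hetX753, 11 of the 53 lay above WT in every library, as 16.7% of all genes did, and 8 below, as 15.8% did, which is near the background. The 4 with the smallest joint p were Pgm2l1, Pdha1, Pfkfb2 and Pdk4. Pgm2l1, a glucose-1,6-bisphosphate synthase, stood at 15, 14 and 13.1 CPM for WT, 19, 22.1 and 14.7 for hetL1002P and 22.1, 22.8 and 24.7 for hetX753. Its hetX753 libraries were clearly separate from WT, with a log2 fold change of 0.72 (SE 0.15, adjusted p = 0.0743). Pfkfb2, a relative of Pfkfb3, stood at 9.44, 8.16 and 6.77 CPM in WT and 12, 10.5 and 14.9 in hetX753, a log2 fold change of 0.61 (SE 0.17, adjusted p = 0.125).

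The remaining pair acts on pyruvate. Pdha1, a subunit of pyruvate dehydrogenase, stood at 406, 411 and 382 CPM for WT, 499, 505 and 466 for hetL1002P and 511, 481 and 539 for hetX753. All 6 carrier libraries were above all WT libraries, with log2 fold changes of 0.35 (SE 0.10, adjusted p = 0.129) in hetX753 and 0.29 (SE 0.10, adjusted p = 0.579) in hetL1002P, from the same WT libraries. Pdk4, the kinase that turns this enzyme off, stood at 106, 361 and 164 CPM for WT, 195, 82 and 178 for hetL1002P and 265, 463 and 688 for hetX753. Its hetX753 and WT libraries overlapped, with a log2 fold change of 1.17 (SE 0.48, adjusted p = 0.217) that became 1.81 without WT 2.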

How the data were processed

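Per the labels' protocols, RNA was column-extracted from gastrocnemius and made into libraries with the TruSeq RNA Library Prep Kit v2. The authors deposited whole-number counts per gene symbol, not normalized. Tools named in the submitters' processing notes are featureCounts 1.4.6, Bowtie2 2.2.6, TopHat2 2.0.14 and Subread, with the build mm10. The annotation, any filters and the use of strand are not given there. The kit does not mark strand, so exons of Gpi1, Pfkm, Pfkp, Aldoa, Tpi1, Phkg1, Gys1, Ugp2 and Gpd1, overlapped by genes of the opposite strand, and of Pkm, overlapped by Gm49759 of its own strand, may hold reads of that gene.

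Counts were tested with edgeR 4.0.16 in R 4.3.3: filterByExpr, TMM, robust quasi-likelihood fit of all 9 libraries on genotype, with Benjamini-Hochberg adjustment over 12989 genes. CPM are counts scaled to a common library size by TMM, and a gene's standard error is its log2 fold change divided by the root of F. Alternatives used DESeq2 1.42.0, limma-voom (limma 3.58.1), other scalings and filters, a replicate block and libraries left out. Fits of the block with the trend removed or a pair left out, and counts of members under other scalings or within pairs, were added after the data were seen. The code was tested on simulated data. Exon lengths and shared stretches come from GENCODE M21, coordinates and promoters from RefSeq GRCm38.p6.

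Same-numbered libraries, numbered in their titles, had deviations correlating at 0.285, 0.36 and 0.516 between WT and hetL1002P, past a bound of 0.1, and at -0.279 to 0.164 in pairs with hetX753. Only between WT and hetL1002P did all 3 correlations pass the bound, so the paired fit was made for these genotypes. No label says what the numbers mark. Deviations from a genotype's mean sum to 0, so the 3 correlations are not independent. WT 3 and hetL1002P 3 both stood apart on the leading principal axis, and whether the numbers mark true pairs was not tested. Chi-square per degree of freedom between libraries of a genotype ran from 14.3 to 65.6, so no library repeats another. Libraries of 19768149 to 33977252 counts give Eno1b 9 to 603 counts.

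Members and lists were chosen with earlier results of these data known. Values by library are given for members that passed, the 8 with the smallest joint p, the 8 highest per kilobase, the enolases and the isoform pairs, and ranges for the others. Values by library of Gpi1, Gys1, Pfkfb1 and Ppp1r3c go beyond that rule and were chosen after they were seen. Of the further pathway genes, the 4 with the smallest joint p were named, and Hk2 was added after its values were seen.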

Additional observations from a re-analysis of the deposited data

How the results depend on the processing

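Of the 35 tested members, edgeR called 1 in hetX753 against WT. DESeq2 called 2 (Eno1b and Phkb), the fit without both WT 3 and hetL1002P 3 another 2 (Pgk1 and Pkm, not Eno1b), and limma-voom, library totals alone, no low-count filter, the 2 genotypes alone and the length and GC trend removed called 0. Leaving out 1 library gave 0 to 2. In the joint test the count of 1 became 2 with DESeq2 and 0 with limma-voom, library totals alone, no low-count filter, both libraries left out or the trend removed, and 0 to 1 without single libraries. Between the carriers 0 became 1 with DESeq2 and with the replicate block in all 9 libraries, and 0 to 1 without single libraries. For hetL1002P against WT the replicate block on those genotypes alone gave 1 (Pfkfb3) and 0 to 1 without single pairs; it calls 635 of all genes, but 1 with the trend also removed. The block changed no other call of a member. Fits with 1 pair or library left out assume that the remaining libraries vary like the other groups.

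The median of -0.12 in hetX753 became 0.008 with library totals alone (all genes 0.122) and -0.024 with the length and GC trend removed (all genes -0.021), which left the hetL1002P median at -0.002 (all genes -0.009). Without single libraries the median ran from -0.208 to -0.007 in hetL1002P and from -0.129 to 0.111 between carriers, where it was 0.108 without both libraries. Of the single genes given with a log2 fold change, 2 changed sign: Eno3 in hetX753 stood at 0.012 with the trend removed, and Eno1b in hetL1002P at -0.21 without both libraries and -0.182 with the block and without pair 3. Over all genes, the 66 calls in hetX753 became 640 with DESeq2, 31 with library totals alone, 254 on the 2 genotypes alone, 340 without both libraries and 0 to 669 without single libraries. The 0 calls in hetL1002P became 5 with DESeq2, and the 15 between carriers became 138. The cause of these shifts was not tested. At 9 to 32 counts a WT library, depth limits Eno1b, and at 0 to 2 counts Eno1 could not be compared. No isoform share passed under any alternative run.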

Other observations

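Markers of other tissue cells gave these values beside the members' levels. The 6 fibroblast markers were all below 0 in hetX753 against WT on the log2 scale, at a median of -0.46 and summed levels of 511 to 674 CPM against 727 to 874 in WT, and all 6 were above 0 in hetL1002P, with a median of 0.13. Of these, 0 passed in edgeR, DESeq2 or limma-voom, and 0 had an unadjusted p under 0.05 against WT. The 6 adipocyte markers summed to 198 to 236 CPM in hetL1002P against 297 to 461 in WT, all 6 below 0 with a median of -0.59, and to 238 to 488 CPM in hetX753. The cardiac and liver markers summed to 57.3 to 101 CPM in hetX753, 3.49 to 98.2 in hetL1002P and 4.23 to 26.5 in WT, nearly all of it Myh6, while Nppa, Tnni3, Alb and Apoa1 stayed near 0. None of these genes passed in edgeR, DESeq2 or limma-voom, and at an unadjusted p under 0.05 against WT there were 2 adipocyte markers in each carrier and 1 cardiac or liver marker in hetX753. Schwann and nerve markers summed to 74.1 to 150 CPM in WT, 107 to 145 in hetL1002P and 101 to 117 in hetX753. Macrophage markers summed to 27.8 to 51 CPM in WT and 25.2 to 33.9 in hetX753, and endothelial markers to 135 to 185 and 156 to 168 CPM. Of 7 erythroid markers, the 4 globin genes Hba-a1, Hba-a2, Hbb-bs and Hbb-bt were listed at 0 in all 9 libraries, so this list cannot show blood in the tissue. The part of these cells in the members' levels was not tested.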
